A study of Mus musculus with 60 samples.

Results

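The synaptic vesicle and release machinery described here is a set of 36 genes whose products build the synaptic vesicle, fuse it with the presynaptic membrane and recover it afterwards. The members were named by symbol, and each was read from the brightest of the probe sets annotated with that symbol alone. A member was tested where it reached log2 4 on 6 or more of the 60 arrays. Of the 36 members, 35 passed, all of them on 60 of 60 arrays, among 11886 passing genes of 18193 with a probe set. The exception was Sv2c, a vesicle protein of the SV2 family, whose single probe set lay between 2.07 and 2.49 in water and between 2.07 and 2.09 with fluoxetine, at the floor of the background correction.

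Cortex was taken from male mice, 10 to 11 weeks old, of 30 inbred strains. In the treated group the drinking water carried fluoxetine, a serotonin reuptake blocker used against depression, at a daily oral dose of 18 mg/kg for 21 days, and in the water group the dose was 0 mg/kg. Each array held pooled RNA from 3 animals sharing strain and treatment, so that 30 water arrays stood against 30 fluoxetine arrays, with 1 array per strain and treatment. Of the strains, 16 fall by textbook genealogy into 4 families: LP/J, 129S1/SvImJ and BTBRT T(+) tf/J; the Bagg albino strains CBA/J, C3H/HeJ, BALB/cJ and A/J; C58/J with the related C57BR/cdJ, C57BLKS/J and C57BL/6J; and the Swiss strains SWR/J, NOD/LtJ, SJL/J, NOR/LtJ and FVB/NJ. The other strains were SM/J, AKR/J, RIIIS/J, BUB/BnJ, PL/J, CE/J, P/J, DBA/2J, NZW/LacJ, I/LnJ, NZB/BlNJ, LG/J, MRL/MpJ and MA/MyJ. Both groups held the same strains, and the labels name no allele or agent beyond strain and fluoxetine. Because pools rather than single animals were measured, the p-values rest on how far values varied over strains, and neither scan dates nor other batches are named in the labels. All 11 measured markers of cortical glutamatergic neurons passed the filter on low values, while 1 of 7 choroid plexus markers and 0 of 3 red blood cell markers did. Of other neighbouring tissues, 10 of 10 meninges, 11 of 12 thalamus, 11 of 12 striatum, 6 of 10 olfactory bulb and neuroblast and 3 of 8 hippocampus markers passed. The 1 choroid plexus marker ran from 5.07 to 15.1 over water arrays and from 4.25 to 11.2 over fluoxetine arrays. Median intensities of the arrays ran from 39.1 to 43.1.

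Neurotransmitter is loaded into vesicles by transporters in the vesicle membrane, vesicles are held in reserve by synapsins, and they are docked and primed at the active zone, a dense protein scaffold that includes bassoon, piccolo, RIM and Munc13. Calcium entering the terminal binds synaptotagmins, and the SNARE proteins of vesicle and plasma membrane zip together to fuse both membranes. NSF and its SNAP adaptors then take the SNARE complex apart, and dynamin, amphiphysin, endophilin and synaptojanin retrieve the membrane for the next round.

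Promoter sequences were available from RefSeq (build GRCm38.p6) for 29 of the 36 members, as windows of 250 bases ending at the start of transcription. The windows of Syn1, Syngr1, Nsf and Dnm1 are shown because the levels of these members, on their brightest probe sets, varied together over strains, as described further on. They were searched on both strands for the full cAMP response element TGACGTCA, its shorter core TGACG, the left part TTCAGCACC and the right part GGACAGC of the site of the neuronal repressor REST, and the GC box GGGCGG. The core is contained in the full element, and the capitals mark the full element, the REST parts and the GC box but not the core. Syn1 encodes synapsin 1, on chrX:20920919-20921168 (minus strand); Syngr1 encodes synaptogyrin 1, on chr15:80091084-80091333 (plus strand); Nsf encodes the ATPase that takes SNARE complexes apart, on chr11:103954057-103954306 (minus strand); and Dnm1 encodes dynamin 1, on chr2:32353330-32353579 (minus strand).
Syn1: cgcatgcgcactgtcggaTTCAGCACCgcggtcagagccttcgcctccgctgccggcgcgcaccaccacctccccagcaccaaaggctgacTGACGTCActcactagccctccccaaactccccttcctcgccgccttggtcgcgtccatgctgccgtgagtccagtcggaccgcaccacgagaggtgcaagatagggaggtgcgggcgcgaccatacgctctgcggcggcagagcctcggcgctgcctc
Syngr1: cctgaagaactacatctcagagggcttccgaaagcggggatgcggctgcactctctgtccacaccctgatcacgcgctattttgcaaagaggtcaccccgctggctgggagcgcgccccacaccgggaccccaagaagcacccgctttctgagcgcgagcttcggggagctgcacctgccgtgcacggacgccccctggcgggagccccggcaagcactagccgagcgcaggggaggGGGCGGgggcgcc
Nsf: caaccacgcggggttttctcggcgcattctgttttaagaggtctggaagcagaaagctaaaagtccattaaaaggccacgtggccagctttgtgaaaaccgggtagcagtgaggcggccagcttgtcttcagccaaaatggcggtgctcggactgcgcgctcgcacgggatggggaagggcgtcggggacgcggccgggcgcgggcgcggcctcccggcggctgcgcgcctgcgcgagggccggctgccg
Dnm1: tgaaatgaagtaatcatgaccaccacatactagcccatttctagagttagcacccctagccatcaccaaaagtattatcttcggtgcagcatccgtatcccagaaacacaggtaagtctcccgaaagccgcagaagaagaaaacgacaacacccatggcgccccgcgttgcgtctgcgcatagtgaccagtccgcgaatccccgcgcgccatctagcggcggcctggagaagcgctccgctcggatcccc
The Syn1 window held both the left part of the REST site and a full cAMP response element, the Syngr1 window held 1 GC box, and the Nsf and Dnm1 windows held none of the capitalised motifs. Among the 29 windows the full cAMP response element was found in 2, those of Syn1 and of Sh3gl2, the endophilin gene. That is 6.90% of the members' windows against 1.62% of all 27025 windows of this length. The TGACG core was found in 6 windows (20.7% against 17.9% of all). The GC box was found in 19 windows (65.5% against 32.9% of all). The left REST part was found in 1 window (3.45% against 0.285% of all) and the right part in 0 (5.29% of all). These are matches of letters only. Syt4 is not among the windows used here.

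The first comparison asks how far the machinery differs between strains. Differences between strains were found for most members, but on the brightest probe sets most of them were small. In limma's F-test of the strain coefficients, with Benjamini-Hochberg adjustment over all genes, 30 of 35 members passed (85.7%), against 88.3% of all genes tested. The median distance between the lowest and the highest strain mean was 0.49 log2 units over the members and 0.68 over all genes. Only 4 of 35 members (11.4%) spanned at least 1 log2 unit, against 27.4% of all genes. The genes compared with needed only log2 4 on 6 arrays, and the comparison was not matched for brightness. The 5 members that did not pass were Syp (synaptophysin, an abundant vesicle protein), Vamp2 (the main vesicle SNARE of the forebrain), Stxbp5 (tomosyn, an inhibitor of SNARE assembly), Snap91 (the clathrin adaptor AP180) and Syt7 (a high-affinity calcium sensor), with adjusted p of 0.0549, 0.0633, 0.107, 0.0506 and 0.131. Snap25, the plasma membrane SNARE, had the narrowest span, 0.22 log2 units between C58/J and LG/J, but passed with an adjusted p of 0.000316. All these spans belong to the brightest probe sets, and dimmer ones could span more. A dimmer probe set spanned 1.76 log2 units for Snap25, 1.96 for Cplx2, 1.11 for Syt7 and 1.08 for Napa. Others were narrower than the brightest, such as the second of Syt4 (0.66 against 2.09). Both arrays of a strain served as a check of each mean. The intraclass correlation, the share of variance shared by both arrays of a strain after removal of the treatment means, had a median of 0.620 over members and 0.593 over all genes. It ran from 0.204 for Syt7 to 0.914 for Rab3c, a small GTPase of the vesicle surface. The dimmer Syt7 probe sets that passed the filter gave 0.892 and 0.497.

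**Figure D1:**
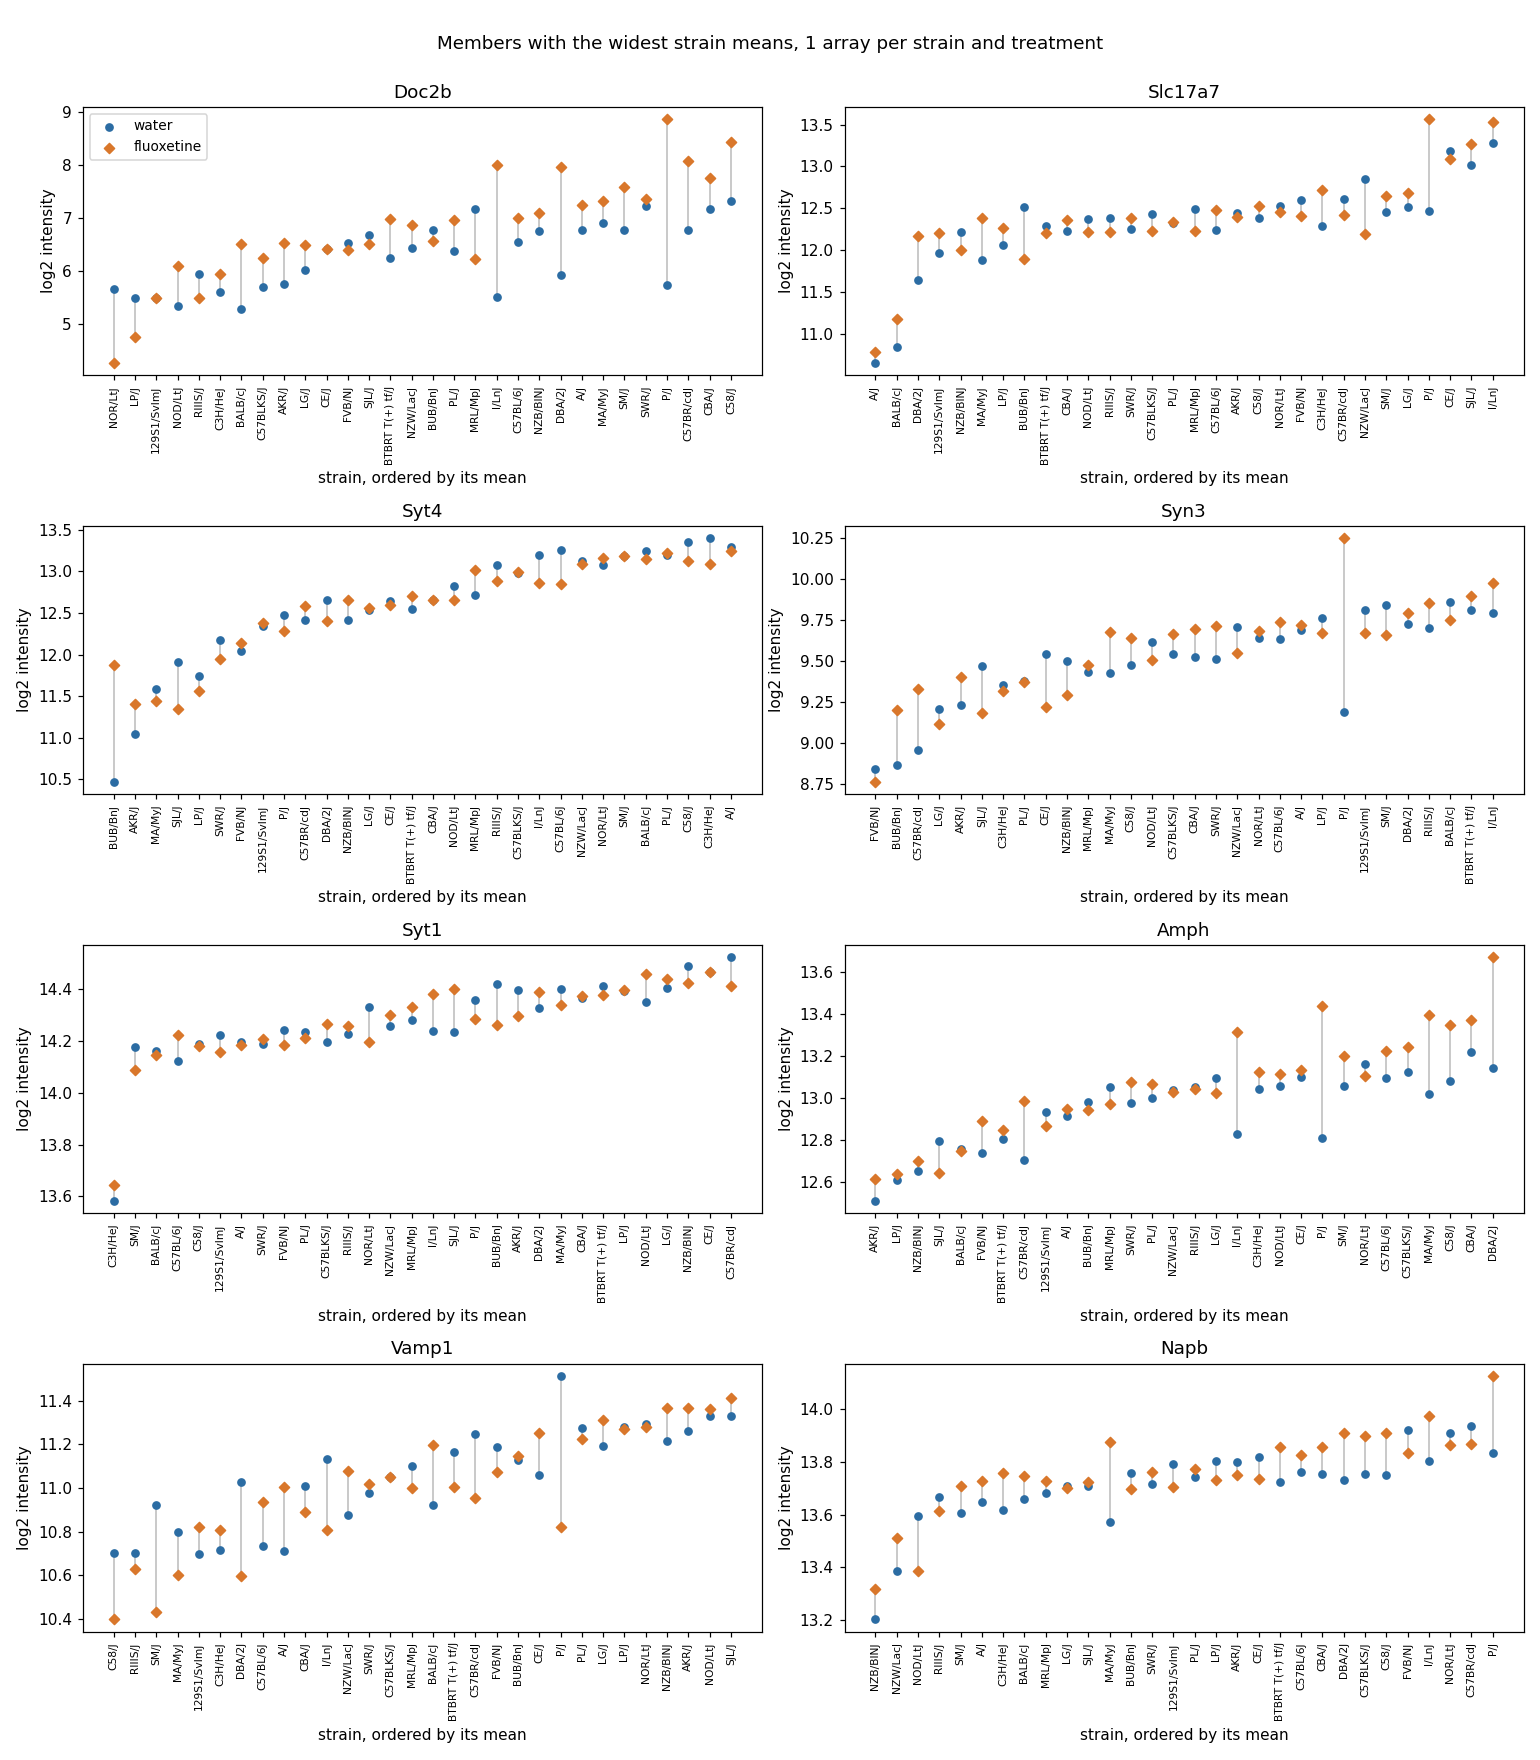
Log2 intensity of the 8 members with the widest span of strain means, strains ordered by their mean in each panel; circles are the water array, diamonds the fluoxetine array, and the grey line joins both arrays of a strain. A/J and BALB/cJ lie apart at the low end for Slc17a7, C3H/HeJ for Syt1 and NZB/BlNJ for Napb, each with both arrays below all arrays of the other strains.

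Among the vesicle membrane proteins, Slc17a7 stood out from the other members of its role. It encodes VGLUT1, the transporter that loads glutamate into vesicles of most cortical excitatory neurons. Water arrays ran from 10.65 through a median of 12.38 to 13.28, and fluoxetine arrays from 10.78 through 12.37 to 13.56. The strain means spanned 2.69 log2 units, a 6.46-fold range (limma F-test, adjusted p = 1.85e-08), against a median absolute difference of 0.20 between both arrays of a strain. A/J lay at 10.65 in water and 10.78 with fluoxetine, and BALB/cJ at 10.84 and 11.17. These 4 arrays were the lowest of the 60, and the next strain mean, that of DBA/2J, was 11.90. At the high end I/LnJ had a mean of 13.40, SJL/J 13.14, CE/J 13.13 and P/J 13.02. The P/J mean joins arrays that lay apart, 12.47 in water and 13.56 with fluoxetine. Slc17a7 was represented by 1 probe set, so its strain order could not be set against a second one. The other vesicle membrane proteins that were tested, Syp, Syngr1, Syngr3, Sv2a and Sv2b, spanned 0.42 to 0.50 log2 units. In bulk tissue fewer cells of a type and less RNA per cell cannot be told apart, here and in all results that follow.

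Of the synapsins, which tether vesicles to each other and to actin, Syn3 had the widest span on the brightest probe sets. Its arrays ran from 8.84 through a median of 9.53 to 9.86 in water and from 8.76 through 9.66 to 10.25 with fluoxetine. Strain means spanned 1.09 log2 units from FVB/NJ at 8.80 to I/LnJ at 9.88 (limma F-test, adjusted p = 0.000115), and the median distance between paired arrays was 0.15. FVB/NJ was low on both arrays, at 8.84 and 8.76, and BUB/BnJ was next with a mean of 9.03. A second Syn3 probe set ordered the strains much alike (r = 0.87 over 30 strains), though its lowest strain was C57BR/cdJ. Syn1 and Syn2 spanned 0.41 and 0.44 log2 units on their brightest probe sets. The further Syn2 probe sets that passed the filter spanned 1.36, 1.17, 0.88 and 1.51 log2 units, with intraclass correlations of 0.905, 0.668, 0.478 and 0.150. The first and second of these had MRL/MpJ lowest and correlated with the brightest at r = -0.02 and 0.19. The brightest Syn2 probe set passed the limma F-test narrowly (adjusted p = 0.0456). It no longer passed in 9 of the 30 fits that left out 1 strain each, those without 129S1/SvImJ, A/J, BALB/cJ, C3H/HeJ, NZB/BlNJ, C57BR/cdJ, DBA/2J, LP/J or CBA/J.

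The calcium sensors held the widest member, Doc2b, and 2 more of the 8 widest, Syt4 and Syt1. Doc2b, a soluble high-affinity calcium sensor of spontaneous and asynchronous release, was a dim probe set. Its water arrays ran from 5.28 through a median of 6.40 to 7.32 and its fluoxetine arrays from 4.27 through 6.71 to 8.86. The strain means spanned 2.91 log2 units from NOR/LtJ at 4.97 to C58/J at 7.88 (limma F-test, adjusted p = 0.00867). Both arrays of a strain lay far apart as well, with a median absolute difference of 0.57 and an intraclass correlation of 0.391, so the order of single strains was poorly resolved. The second Doc2b probe set reached log2 4 on 19 arrays and correlated with the first over strain means (r = 0.83).

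Syt4 encodes synaptotagmin 4, a form whose calcium binding differs from that of the fast sensor. Its water arrays ran from 10.47 through a median of 12.65 to 13.40, and its fluoxetine arrays from 11.35 through 12.65 to 13.24. BUB/BnJ, AKR/J, MA/MyJ, SJL/J and LP/J had the lowest means, 11.18, 11.23, 11.51, 11.63 and 11.65, and the next strain lay at 12.06. A/J was highest at 13.26, which gave a span of 2.09 log2 units (limma F-test, adjusted p = 2.08e-10). The lowest mean rests on arrays that differed by 1.40, since BUB/BnJ lay at 10.47 in water and 11.88 with fluoxetine. The second Syt4 probe set did not order the strains in this way: it spanned 0.66 log2 units, correlated with the first at r = 0.10, and gave BUB/BnJ 12.63 in water and 12.48 with fluoxetine. Which of the probe sets follows the transcript was not tested.

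Syt1, synaptotagmin 1, is the fast calcium sensor of evoked release. Its arrays ran from 13.58 through a median of 14.27 to 14.52 in water and from 13.64 through 14.29 to 14.47 with fluoxetine. The lowest array of each treatment was that of C3H/HeJ, whose mean of 13.61 lay 0.52 below the next strain, SM/J at 14.13. The other 29 strains lay within 14.13 to 14.47, and the whole span of 0.85 passed the limma F-test with an adjusted p of 5.17e-10. The 3 further Syt1 probe sets ordered the strains differently (r = 0.20, 0.09 and -0.45), and 1 of them had its highest strain mean in C3H/HeJ. Rph3a, rabphilin, which binds Rab3 and calcium, spanned 0.59 log2 units (adjusted p = 3.9e-05).

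Of the SNARE proteins, Vamp1 varied most. It is a vesicle SNARE that dominates in brainstem and spinal cord and is present in a subset of forebrain neurons. Water arrays ran from 10.70 through a median of 11.08 to 11.51 and fluoxetine arrays from 10.40 through 11.01 to 11.41. The means spanned 0.82 log2 units from C58/J at 10.55 to SJL/J at 11.37 (limma F-test, adjusted p = 0.000215). A second Vamp1 probe set also had its lowest mean in C58/J and correlated with the first at r = 0.70. Among the SNARE regulators and the proteins that take SNAREs apart, Napb was the widest. It encodes beta-SNAP, the brain form of the adaptor that recruits NSF. Its arrays ran from 13.20 through a median of 13.74 to 13.94 in water and from 13.32 through 13.75 to 14.13 with fluoxetine. NZB/BlNJ had the lowest mean, 13.26, and P/J the highest, 13.98, a span of 0.72 (limma F-test, adjusted p = 9.6e-06). NZB/BlNJ was also lowest in 3 of the 4 further Napb probe sets that passed the filter, whereas in the remaining one FVB/NJ was lowest with 7.10 in water and 8.52 with fluoxetine. Cplx1 and Cplx2, the complexins that clamp and promote fusion, spanned 0.46 and 0.68 log2 units. Stx1a, syntaxin 1A of the plasma membrane, spanned 0.40, and Nsf and Napa, the alpha form of SNAP, spanned 0.30 and 0.52.

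In the active zone and Rab3 group the strain order was the most stable between both arrays, with a median intraclass correlation of 0.723. Rab3c had a span of only 0.57 log2 units, yet 5 strains were low on both arrays. RIIIS/J lay at 12.83 in water and 12.80 with fluoxetine, CE/J at 12.84 and 12.79, and NOD/LtJ at 12.89 and 12.83. NOR/LtJ lay at 12.90 and 12.88, MA/MyJ had a mean of 12.94, and C57BL/6J, the highest, lay at 13.34 and 13.43. The further Rab3c probe sets that passed the filter ordered the strains in a like way (r = 0.80, 0.59 and 0.85). Rab3a, the main Rab3 of the brain, spanned 0.65, Bsn (bassoon) 0.54, Rims1 (RIM1) 0.45 and Unc13a (Munc13-1, the priming factor) 0.53 log2 units, all past the F-test. Unc13a did not pass in the fit without CBA/J. Among the endocytic members Amph, amphiphysin, had the widest span, 0.85, from AKR/J at 12.56 to DBA/2J at 13.41 (limma F-test, adjusted p = 4.07e-05), while Dnm1 spanned 0.31, Synj1 (synaptojanin 1, which strips clathrin coats) 0.33 and Sh3gl2 0.47.

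The order of strains often differed between probe sets of the same gene. For 29 members at least 1 further probe set passed the filter, 48 in all. Strain means of the further and the brightest probe set correlated at a median of r = 0.27, with 22 of 48 over 0.5 and 12 below 0. Pclo, the gene of the scaffold protein piccolo, had the most negative values, and it was singled out after these values were seen. Its brightest probe set had CBA/J as the highest strain, at 13.86 in water and 13.88 with fluoxetine. In the second probe set CBA/J was lowest, at 7.30 and 6.86, where no other array was below 10.07. In the third it was again lowest, at 6.19 and 6.64, where no other array was below 8.56. Both further probe sets separated the strains almost without within-strain spread (intraclass correlations 0.974 and 0.978) and ran against the first (r = -0.66 and -0.72). Whether sequence differences under the probes take part in this was not tested.

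**Figure D2:**
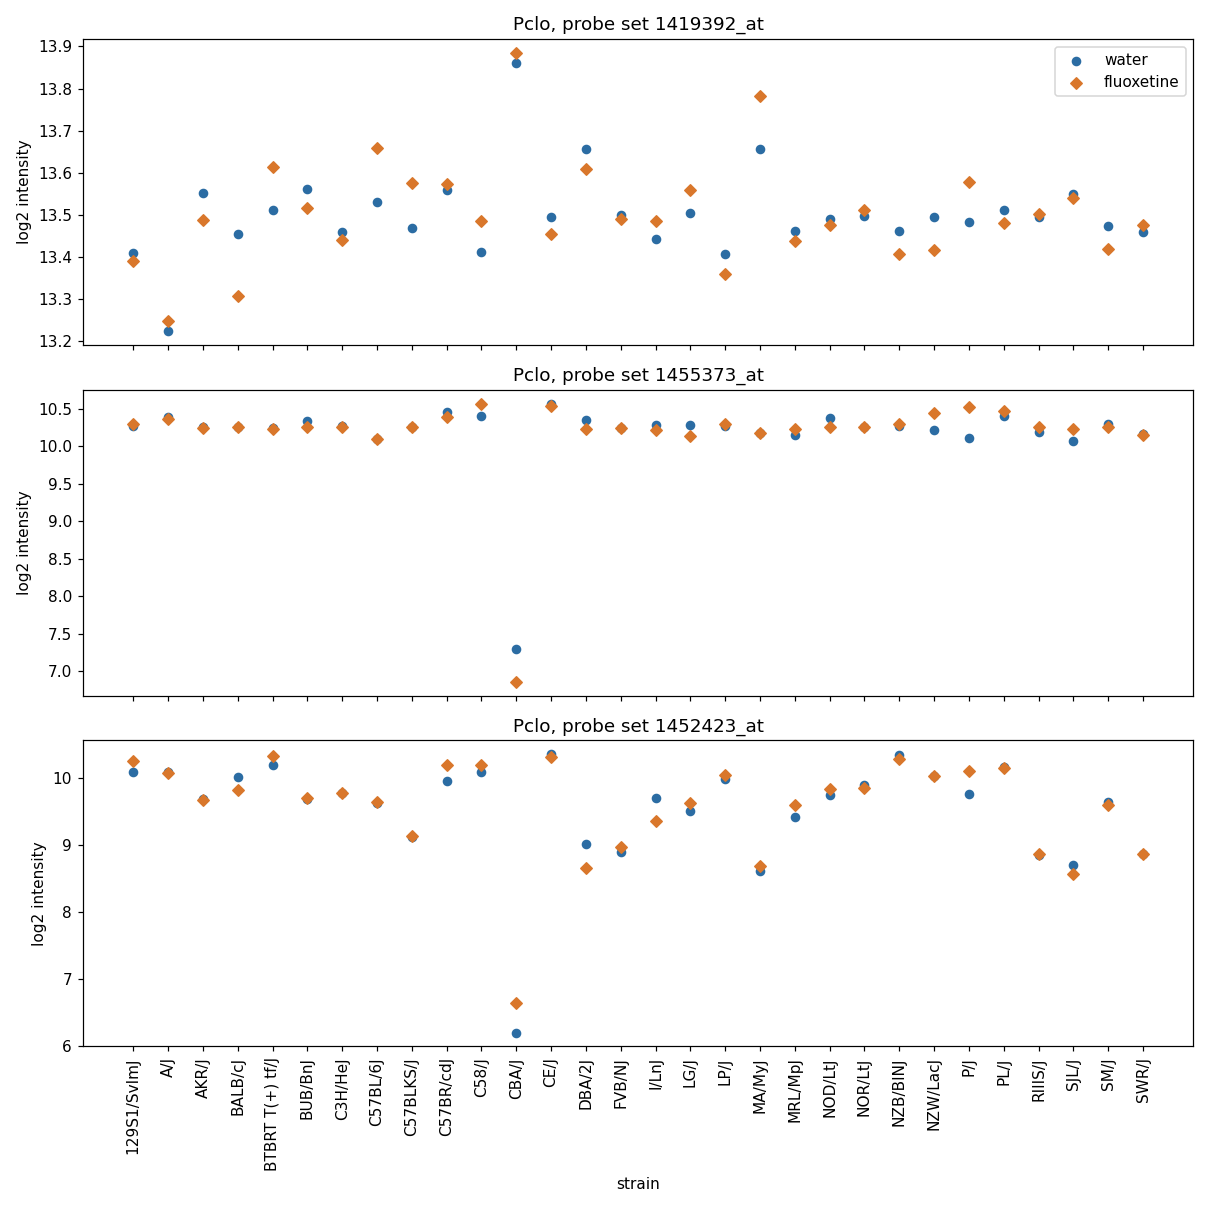
Log2 intensity of the 3 Pclo probe sets in each of 30 strains, with circles for the water and diamonds for the fluoxetine array. CBA/J is the highest strain in the top panel and the lowest, on both arrays, in the other panels.

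The levels of many members varied together over strains. Over the 595 pairs of the 35 members, the median correlation of strain means was 0.23 and 19.5% of pairs lay over 0.5, whereas over all pairs of tested genes the median was 0.04 and 4.26% lay over 0.5. All pairs share arrays, normalization and the ancestry of the strains, so neither strains nor pairs are fully independent. After Benjamini-Hochberg adjustment over the 595 permutation p-values, 162 pairs passed, 156 with a positive and 6 with a negative r. The closest pair was Syn1 and Nsf, with Pearson r = 0.875 and Spearman rho = 0.881 over 30 strains (permutation p = 1e-05 for each, the smallest that 100000 permutations can give; adjusted p = 0.000229 and 0.000259). Without the 2 strains farthest from the median of Syn1, r was 0.862. Syn1 also varied with Syngr1 (r = 0.872), Synj1 (r = 0.847) and Dnm1 (r = 0.835), each with an adjusted p of 0.000229. These members thus joined vesicle, fusion and endocytic roles, at spans of 0.30 to 0.50 log2 units, on their brightest probe sets. Further probe sets that passed the filter often ordered the strains otherwise. They correlated with the brightest at r = -0.08 and -0.31 for Nsf, -0.10 and 0.21 for Synj1, 0.27 for Syngr1 and 0.74 for Dnm1. Syn1 had 1 probe set, and whether the pairs hold on further probe sets was not tested. The paralog pairs read here were less close than these pairs with Syn1. Syn1 and Syn2 gave r = 0.562, Cplx1 and Cplx2 0.505, and Syngr1 and Syngr3 0.529, all over the median of 0.23. Syn2 and Syn3 gave 0.04, and Rab3a and Rab3c -0.167, both below that median. Other paralog pairs are not given here. Syt4 had the lowest mean correlation with the other members, -0.154, and Syn3 the next lowest, -0.138, though the second Syt4 probe set ordered the strains otherwise.

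**Figure D3:**
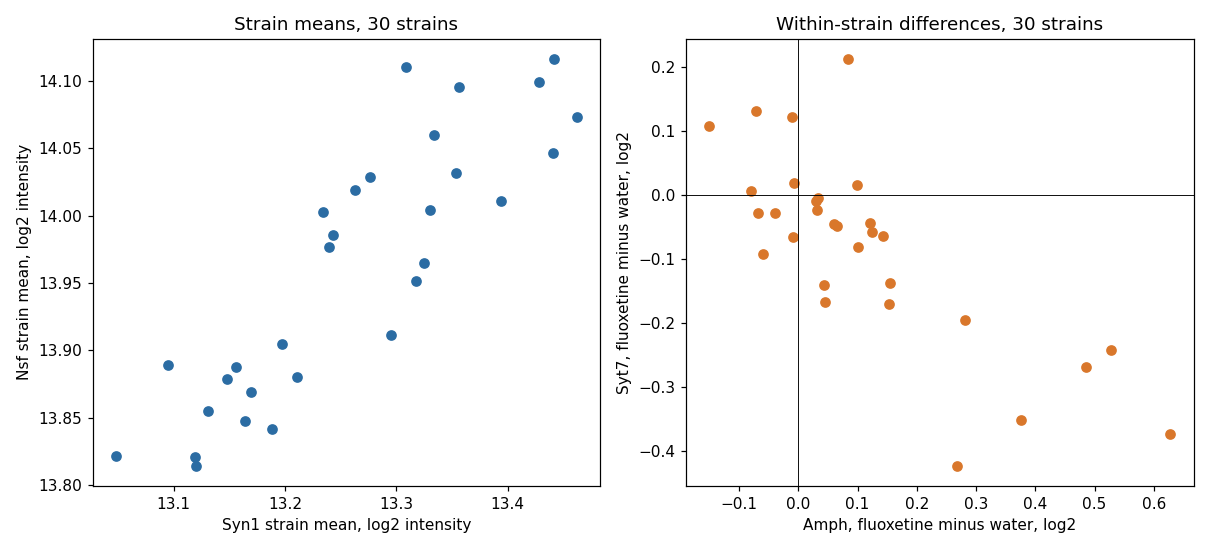
Left, strain means of Syn1 and Nsf in log2 intensity, 1 point per strain; right, within-strain fluoxetine minus water of Amph and Syt7 on the log2 scale, 1 point per strain. On the brightest probe sets Syn1 and Nsf vary together over 30 strains (r = 0.875), and strains with a higher Amph difference have a lower Syt7 difference (r = -0.772).

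Related strains were compared next, with the 16 strains of the 4 families. In the limma F-test of family on strain means 0 of 35 members passed, against 2.75% of all genes. At an unadjusted p under 0.05 were 4 of 35 members, Slc17a7, Syt4, Cplx2 and Unc13a (11.4%), a share below the 15.7% of all genes. Cplx2 came nearest, with means of 12.99 ± 0.083 (SD, n = 5) in the Swiss strains, 12.87 ± 0.19 (SD, n = 3) in the family of 129S1/SvImJ, and 12.70 ± 0.11 and 12.70 ± 0.15 (SD, n = 4 each) in the Bagg albino and C57 families (limma, adjusted p = 0.152). The low Slc17a7 strains A/J and BALB/cJ belong to the Bagg albino family, whose mean was 11.63 ± 0.90 (SD, n = 4), but C3H/HeJ and CBA/J of that family were not low. For the fluoxetine response 0 of 35 members passed the family test, against 0% of all genes. At an unadjusted p under 0.05 there were 4 members, Syn2, Doc2b, Cplx2 and Unc13a, against 6.13% of all genes.

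The second comparison asks whether the machinery differs after 21 days of fluoxetine. No member passed the threshold: with strain as a block in limma and Benjamini-Hochberg adjustment over all genes, 0 of 35 members were called, against 0.0589% of all 11886 genes. At an unadjusted p under 0.05 there were 13 members (37.1%) against 15.3% of all genes. Of these 9 were higher with fluoxetine, against 7.3% of all genes, and 4 lower, against 8%. Differences were small, with a median of 0.017 log2 over the 35 members and -0.0029 over all genes, and 23 members were higher and 12 lower. By role, all 6 tested vesicle membrane members, all 3 synapsins and all 5 endocytic members had a value above 0, as did 1 of 5 calcium sensors, 1 of 4 SNARE proteins, 3 of 6 SNARE regulators and 4 of 6 members of the active zone group. When the probe sets of a gene were averaged in place of the brightest one, 17 members were higher and the median was -0.0033, so these directions depend on the probe set. The count at an unadjusted p under 0.05 was 7 of 29 members with the next brightest probe set, against 12.5% of all genes with one, and 6 of 35 without the strain block, against 3.85% of all genes.

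**Figure D4:**
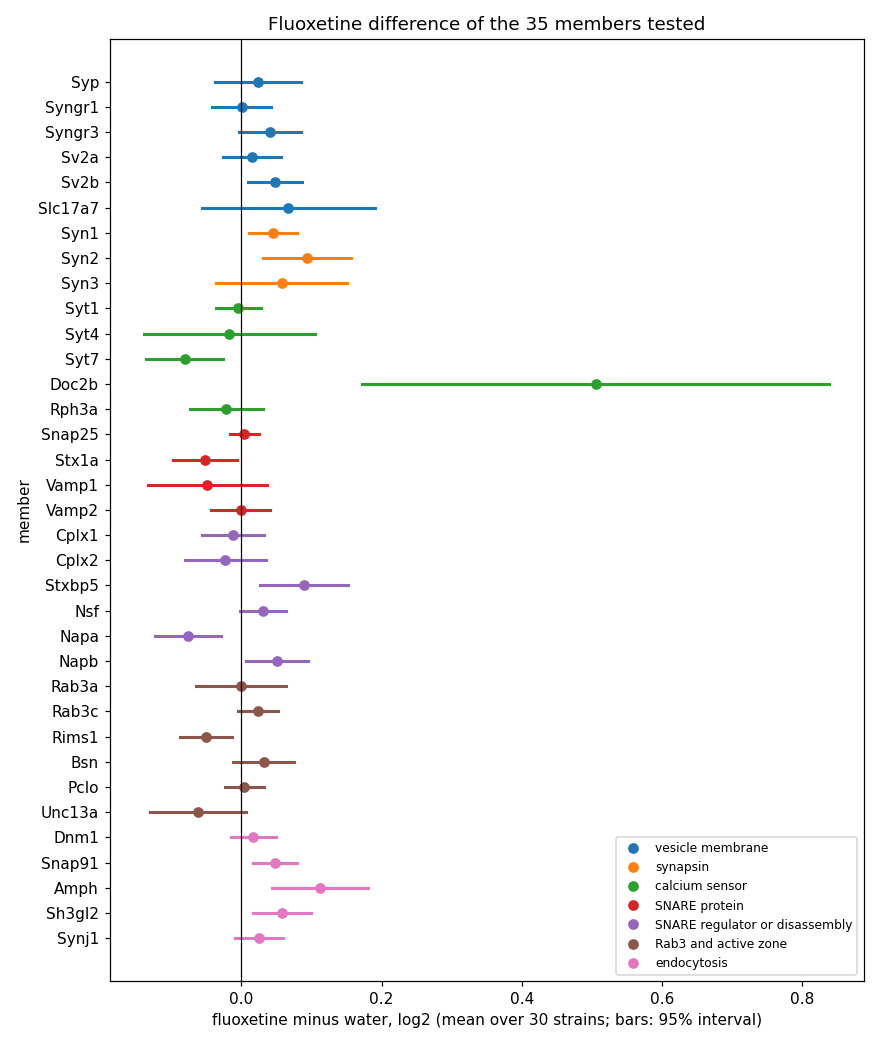
Mean within-strain difference, fluoxetine minus water on the log2 scale, of the 35 tested members over 30 strains, coloured by role; bars are 95% intervals of the limma fit before adjustment. Doc2b lies at 0.51 with the widest interval, and the other members lie between -0.08 and 0.11.

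The 8 members with the smallest p-values are given by role. Syn2, a synapsin of the reserve pool, ran from 13.15 through a median of 13.29 to 13.51 in water and from 13.14 through 13.34 to 13.82 with fluoxetine. The groups overlapped almost fully at the low end. The within-strain difference was 0.09 (SE 0.0305, limma adjusted p = 0.141), with a higher value in 20 of 30 strains, and the 4 further Syn2 probe sets that passed the filter differed by 0.09 to 0.15. Among the calcium sensors Doc2b had the largest difference of all members, 0.51 (SE 0.163, 95% interval 0.17 to 0.84, limma adjusted p = 0.141), on the levels given above. Its value was higher in 22 strains, lower in 7, and its second probe set differed by 0.40, with 20 strains higher. The Doc2b difference was unequal over strains: P/J went from 5.73 to 8.86, I/LnJ from 5.51 to 8.01 and DBA/2J from 5.92 to 7.97, whereas NOR/LtJ went from 5.67 to 4.27. Without P/J the mean difference was 0.41. Syt7, a slow calcium sensor of facilitation, ran from 12.83 through 13.13 to 13.31 in water and from 12.71 through 13.04 to 13.30 with fluoxetine. It differed by -0.08 (SE 0.0268, limma adjusted p = 0.142) and was lower in 23 of 30 strains, though the ranges of the groups overlapped over most of their length. Of the further Syt7 probe sets, 1 differed by only -0.016, with 15 of 30 strains higher, and 1 by -0.09, with 9 higher.

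Stxbp5 ran from 10.46 through 10.61 to 10.89 in water and from 10.56 through 10.70 to 11.15 with fluoxetine. Its difference was 0.09 (SE 0.0309, limma adjusted p = 0.159), higher in 22 strains, and its 2 further probe sets differed by 0.10 and 0.07. Napa, which bridges NSF and the SNARE complex, ran from 11.71 through 11.96 to 12.23 in water and from 11.51 through 11.89 to 12.13 with fluoxetine. It differed by -0.08 (SE 0.0229, limma adjusted p = 0.112) and was lower in 20 strains, with overlapping groups, and its other probe set differed by -0.05, with 8 strains higher. The paralog Napb had the opposite sign, 0.05 (limma adjusted p = 0.253), and whether both differences are unequal was not tested.

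Of the endocytic members 3 were among the 8. Amph, which brings dynamin to curved membrane, ran from 12.51 through 13.01 to 13.22 in water and from 12.61 through 13.06 to 13.67 with fluoxetine. Its difference of 0.11 (SE 0.0334) had the smallest adjusted p of all members, 0.110 in limma, and 21 of 30 strains were higher. The upper end of the fluoxetine group was set by DBA/2J at 13.67 and P/J at 13.44. Snap91 ran from 13.71 through 13.80 to 13.93 in water and from 13.74 through 13.82 to 14.08 with fluoxetine. It differed by 0.05 (SE 0.0156, limma adjusted p = 0.141) with 23 strains higher, but its other, dimmer probe set differed by -0.21 with 10 strains higher, so the sign depends on the probe set. Sh3gl2, endophilin A1, which couples membrane bending to uncoating, ran from 12.93 through 13.12 to 13.46 in water and from 12.98 through 13.19 to 13.43 with fluoxetine. It differed by 0.06 (SE 0.02, limma adjusted p = 0.157), higher in 23 strains, and its 2 further probe sets differed by 0.05 and 0.04. In each of these members the groups overlapped over most of their range.

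The other 5 members with an unadjusted p under 0.05 had differences of -0.05 to 0.05. Syn1, Sv2b (a vesicle glycoprotein) and Napb were each higher by 0.05 (limma adjusted p = 0.190, 0.204 and 0.253). Rims1 and Stx1a each differed by -0.05 (limma adjusted p = 0.175 and 0.261). The remaining 22 tested members had unadjusted p-values above 0.05. For several of them the 95% interval was narrow on the brightest probe set. Snap25 differed by 0.0044 with an interval of -0.02 to 0.02, and Syt1 by -0.0043 with an interval of -0.04 to 0.03. The other Snap25 probe set differed by -0.04, with an SD over strains of 0.54 against 0.04. Further Syt1 probe sets differed by -0.01 to -0.15, with SDs of 0.18 to 0.40 against 0.08. Snap25 was the brightest member, with a mean of 15.67. The water arrays of A/J, SM/J, MA/MyJ, I/LnJ and BTBRT T(+) tf/J shared its value of 15.6761. Whether this signal was near its upper limit was not tested. Slc17a7 (0.07, interval -0.06 to 0.19) and Syt4 (-0.02, interval -0.14 to 0.10) were measured less precisely. Without P/J the Slc17a7 difference was 0.031 and without NZW/LacJ 0.092, and the Syt4 difference was -0.066 without BUB/BnJ and 0.0018 without SJL/J.

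Markers of other cell types were read on the same arrays. All 11 tested oligodendrocyte markers were lower with fluoxetine, with a median of -0.22, where 6306 of all 11886 genes were lower. The list mean was lower in 20 of 30 strains. Of the 11 markers 0 passed the adjusted threshold and 9 had an unadjusted p under 0.05 in limma, against 15.3% of all genes. Their mean level ran from 9.82 to 10.9 in water and from 9.08 to 11.0 with fluoxetine. Of the thalamus markers 10 of 11 were lower and of the striatum markers 9 of 11, with Gbx2 and Drd2 of those lists below the filter. The thalamus list mean was lower in 21 strains and the striatum list mean in 16, with MRL/MpJ at -0.725 for striatum. Oligodendrocyte precursor markers were lower in 7 of 7 (median -0.076). Cortical glutamatergic neuron markers were higher in 5 and lower in 6 (median -0.019), with the list mean higher in 14 strains. Meninges markers were higher in 5 of 10. At an unadjusted p under 0.05 in limma were 3 of 11 cortical neuron, 3 of 7 precursor, 4 of 11 striatum and 3 of 11 thalamus markers. So were 3 of 10 endothelium, 2 of 10 astrocyte, 2 of 10 microglia and 2 of 10 meninges markers. Endothelium markers were lower in 8 of 10, with the list mean lower in 17 strains. GABA interneuron markers were higher in 6 of 10, with the list mean lower in 21 strains, and 5 of 10 had an unadjusted p under 0.05 in limma. Astrocyte markers were higher in 8 of 10, with the list mean higher in 24 of 30 strains, and microglia markers in 8 of 10, with the list mean higher in 20 strains. With the mean levels of 5 marker lists (oligodendrocyte, striatum, thalamus, astrocyte and microglia) as covariates, 3 of 35 members had an unadjusted p under 0.05 in place of 13, against 7.17% of all genes in that fit, and 27 members were higher. Of 105 relations between a member's difference and the mean difference of the oligodendrocyte, striatum or thalamus list, 1 passed after adjustment by Pearson's r and 1 other by Spearman's rho, both of them for Vamp1. By r, strains with a lower difference in the oligodendrocyte list had a lower Vamp1 difference (r = 0.628, permutation p = 2e-04, adjusted p = 0.0210; rho = 0.575, adjusted p = 0.0578; r = 0.601 without the 2 farthest strains, SM/J and MRL/MpJ). By rho, the Vamp1 difference went with that of the thalamus list (rho = 0.613, permutation p = 0.00047, adjusted p = 0.0494; r = 0.480, adjusted p = 0.162; r = 0.515 without P/J and I/LnJ). Beyond these values the part of other cell types in the members' differences was not tested.

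Strains differed in the size and direction of their response, with no replicate of a single strain's value. P/J had the largest mean absolute difference over all genes, 0.280, against a median strain of 0.136, and also over the members, 0.399. In P/J 17 members were higher and 18 lower. Doc2b was higher by 3.13, Slc17a7 by 1.09, Syn3 by 1.06, Amph by 0.63, Stxbp5 by 0.59 and Syn2 by 0.54, while Vamp1 differed by -0.69, Unc13a by -0.47, Napa by -0.42, Stx1a by -0.39 and Syt7 by -0.37. In the same strain the mean of the oligodendrocyte list differed by -0.849 and that of the thalamus list by -0.821. The olfactory bulb and neuroblast list differed by -1.68, the microglia list by 0.636, the astrocyte list by 0.416 and the striatum list by 0.0145. DBA/2J had the next largest difference over all genes, 0.220, with Doc2b higher by 2.05, Amph by 0.53 and Slc17a7 by 0.52 and Vamp1 differing by -0.43. In BUB/BnJ 31 of 35 members were lower and 4 higher, with a median member difference of -0.146 against -0.035 over all genes. Yet in BUB/BnJ Syt4 was higher by 1.40 and Syn3 by 0.34, and Slc17a7 differed by -0.63. The second Syt4 probe set was lower with fluoxetine in this strain, as its levels given above show. NOR/LtJ had 30 members lower and C3H/HeJ 30 members higher, with median member differences of -0.055 and 0.11 against median all-gene differences of -0.022 and 0.016. Without the 5 strains of largest response (P/J, DBA/2J, C58/J, BUB/BnJ and C57BR/cdJ, an alternative added after the data were seen), 0 members passed and 11 had an unadjusted p under 0.05, against 10.4% of all genes in that fit.

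**Figure D5:**
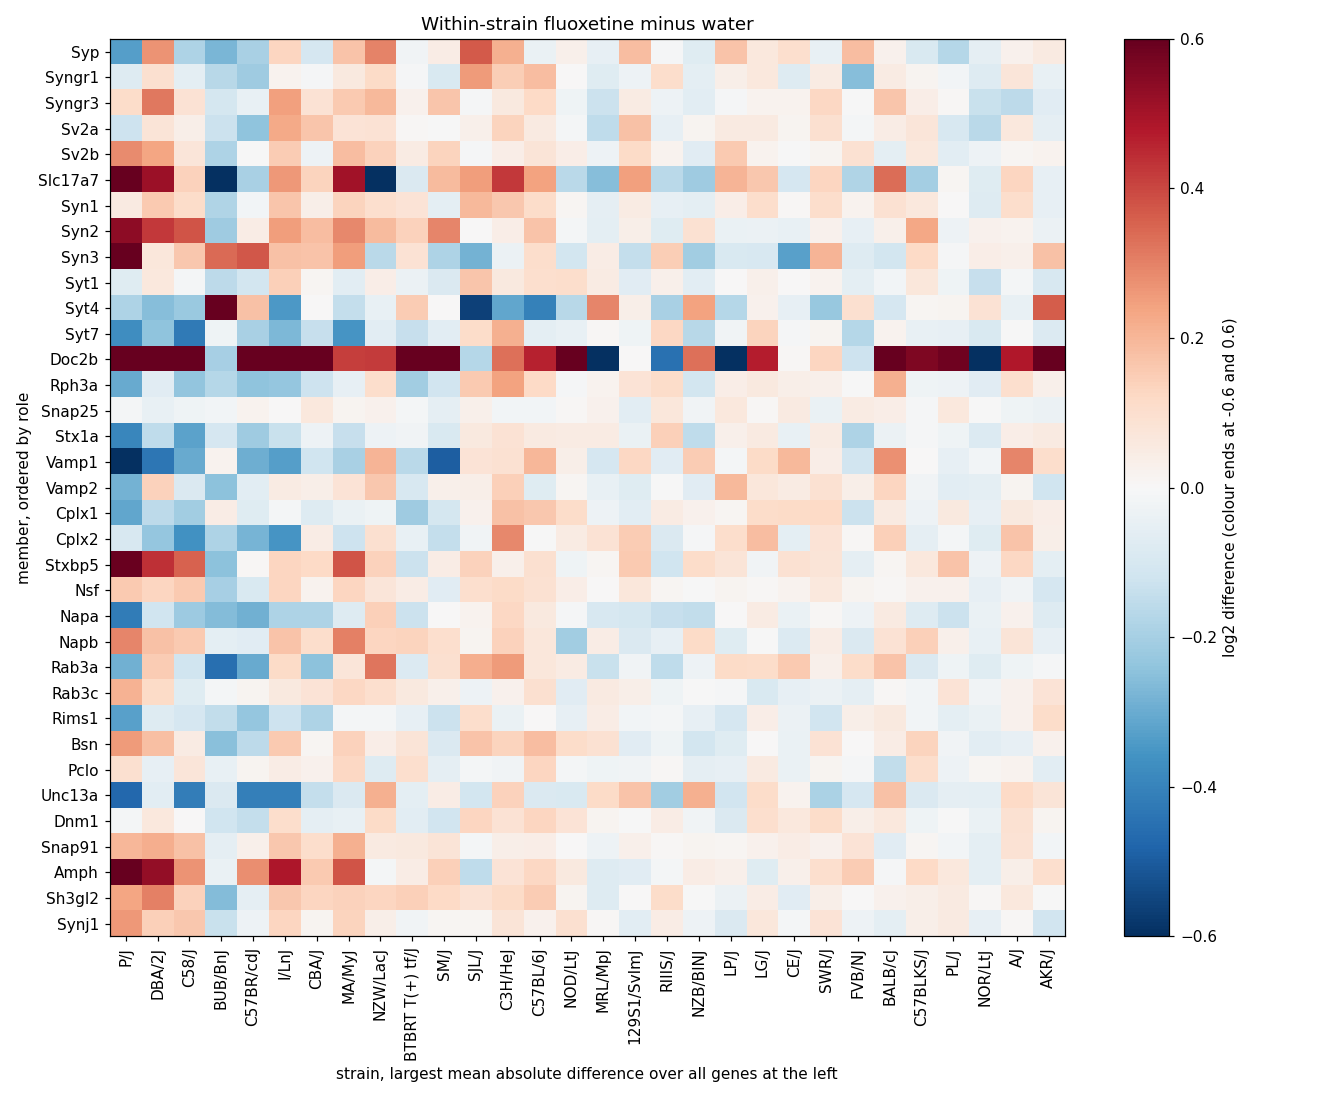
Within-strain fluoxetine minus water (log2) of the 35 tested members, in rows ordered by role, for 30 strains in columns ordered by the mean absolute difference over all genes, largest at the left; red is higher and blue lower with fluoxetine, and the colour ends at -0.6 and 0.6. Doc2b is at the end of the colour scale in many strains, and in the BUB/BnJ column most members are blue while Syt4 and Syn3 are red. Each member is shown by its brightest probe set.

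The members' differences were also correlated with each other over strains. The median r over the 595 pairs was 0.19, with 27.1% over 0.5, against a median of 0.01 and 2.94% for all pairs of genes. These differences come from 60 arrays shared by all pairs. After adjustment 279 pairs passed, 202 with a positive and 77 with a negative r. Syt7 and Stx1a had r = 0.858 (rho = 0.773, permutation p = 1e-05, adjusted p = 0.000149, r without the 2 farthest strains 0.787). Syp and Rab3a had r = 0.848 (rho = 0.861, adjusted p = 0.000149, 0.827 without the 2 farthest), and Snap91 and Amph r = 0.836 (rho = 0.684, adjusted p = 0.000149, 0.779 without). Strains with a higher Amph difference had lower Syt7 and Vamp1 differences: r = -0.772 for Syt7 (rho = -0.731, permutation p = 2e-05, adjusted p = 0.000238, r = -0.735 without the 2 farthest strains) and r = -0.762 for Vamp1 (rho = -0.6, adjusted p = 0.000149, -0.722 without). On its brightest probe set Syt4 ran against most members, with a mean r of -0.353 and r = -0.791 with Nsf (rho = -0.721, adjusted p = 0.000149, -0.718 without). The differences of the second Syt4 probe set varied less over strains (SD 0.118 against 0.339), and its relation to the other members was not tested. All pairs given here were read on the brightest probe sets. The other Snap91 probe set had a mean difference of -0.21 against 0.05, and a further Syt7 probe set -0.016 against -0.08. Whether the pairs hold on further probe sets was not tested.

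A wider list of presynaptic genes outside the members held 117 genes, of which 106 had a probe set and 101 passed the filter. With fluoxetine 0 of 101 were called by limma and 19 (18.8%) had an unadjusted p under 0.05, against 15.3% of all genes and 37.1% of the members. In this list 57 genes were higher and 44 lower, with a median of 0.0054, against 0.017 for the members, and whether list and members differ was not tested. The smallest p-values belonged to Atp6v1a, a subunit of the proton pump that energises vesicle loading (0.09, SE 0.0232, limma adjusted p = 0.0862, higher in 23 strains), Rimbp2, an active zone protein that binds RIM and calcium channels (0.20, SE 0.0543, limma adjusted p = 0.0874, higher in 21), and Itsn2, an endocytic scaffold (0.11, SE 0.0343, limma adjusted p = 0.118, higher in 21). Between strains 92 of 101 passed the F-test, against 88.3% of all genes, with a median span of 0.60 log2 units. The widest were Slc17a6, the VGLUT2 transporter that prevails in thalamus (2.84), Stxbp2, a Munc18 form (1.91), Syt2, a fast calcium sensor of hindbrain and some interneurons (1.78), Vamp3, a widely expressed SNARE (1.75), and Syt9 (1.44).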

How the data were processed

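The deposited values were intensities on a linear scale for each probe set, which the authors obtained through GCRMA (named in the submitters' processing notes; version and genome build: not given in the sources used here). This method corrects for background by probe sequence, which compresses low values. Values were taken to log2 with no pseudocount, and the deposited normalization was kept. Of 45101 probe sets, 34958 had 1 gene name in the platform annotation and 932 had several and were not used. All 35 tested members came from the fit over 11886 genes in limma 3.58.1 (R 4.3.3), lmFit and eBayes, two-sided, with Benjamini-Hochberg adjustment at 0.05, tested on simulated data first. Strain was a block from the strain label: in 30 of 30 strains each array correlated best with the other array of its own strain (0.519 to 0.855). The number of arrays limits the precision. Members and lists were chosen with earlier results of these data known. Full values were given for the 8 members of smallest p and the 8 of largest strain span, and of the wider list for the 3 of smallest p and the 5 of largest span. Correlations were tested with 100000 permutations of strains. Alternatives changed the probe set, the filter, the normalization, the eBayes prior, the block, marker covariates and the strains.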

Additional observations from a re-analysis of the deposited data

Results flagged for a closer look

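For the 3 members with the smallest family p (Cplx2, Syt4 and Slc17a7), strain means and fluoxetine differences were looked at within the 3 families of 4 or 5 strains, 18 groups in all, and 3 groups held a strain far from the rest of its family. Cplx2 was low in C58/J, at a strain mean of 12.48 among the C57-related strains. Syt4 was low in CBA/J only for its family, at 12.65 among the Bagg albino strains. The value 12.65 was also the median of the water and of the fluoxetine arrays over all strains. It comes from the brightest Syt4 probe set, and the second ordered the strains otherwise. Slc17a7 was high in SJL/J, at 13.14 among the Swiss strains. Chance marks about 1 in 20 such groups.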

How the results depend on the processing

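The number of members called with fluoxetine stayed at 0 under every alternative, as did that of the wider presynaptic list and of both family tests. The count of 13 members with an unadjusted p under 0.05 was 3 with marker scores as covariates (7.17% of all genes), 6 with no replicate block (the strain pairing left out; 3.85% of all genes) and 7 of 29 with the next brightest probe set (12.5% of all genes), 11 to 15 otherwise, and 11 to 16 when 1 strain was left out. The member median of 0.017 was 0.0136 to 0.0242 with 1 strain left out, -0.0032 with the next brightest probe set, -0.0033 with the mean of probe sets, 0.0253 with marker scores and 0.0205 without the 5 strains of largest response. Between strains, 30 member calls became 26 (of 29 with a next brightest probe set) to 34, and 28 to 34 with 1 strain left out. The 92 calls of the wider list became 53 of 60 with the next brightest probe set and 89 to 95 with 1 strain left out. Single-member strain calls were lost 6 times and gained 15 times over the alternatives. With 1 strain left out, Syp passed in 9, Vamp2 in 4, Stxbp5 in 1 and Snap91 in 8 of 30 fits, and Stxbp5 only without P/J.

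Fluoxetine differences changed sign as follows, and the cause was not tested. With the mean of all probe sets the values were -0.0216 for Syngr1, -0.0190 for Snap25, -0.0033 for Nsf, -0.0208 for Rab3a, -0.0057 for Rab3c and -0.0799 for Snap91. With the next brightest probe set they were -0.0671 for Syngr1, -0.0423 for Snap25, -0.0417 for Rab3a, -0.0032 for Rab3c, -0.0011 for Dnm1 and -0.208 for Snap91. With marker scores they were -0.00044 for Slc17a7, -0.0307 for Syn3, 0.0039 for Syt1, 0.0334 for Rph3a, 0.0588 for Vamp1, 0.0240 for Vamp2, 0.0319 for Cplx1, 0.0351 for Cplx2, -0.0104 for Pclo and 0.0103 for Unc13a. Without the 5 strains of largest response they were -0.0108 for Syn3, 0.0066 for Syt1, 0.0153 for Rph3a, 0.0101 for Vamp1, 0.0205 for Vamp2, 0.0137 for Cplx1 and 0.0185 for Cplx2, and with arrays centred on their median 0.0013 for Vamp2. With 1 strain left out, the sign also changed for Syngr1 (-0.0082 to 0.0093), Syt1 (-0.0102 to 0.0010), Syt4 (-0.0659 to 0.0018), Vamp2 (-0.0078 to 0.0087), Rab3a (-0.0110 to 0.0158) and Pclo (-0.00028 to 0.0093). None of these members had passed the threshold. Doc2b and Sv2c, the dimmest members, are those whose signal over background limits them most. Sv2c lay at the floor, while Doc2b was not compressed and had the largest SD of within-strain differences, 0.933.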
